A study of Homo sapiens with 10 samples.

Results

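The 44 genes described here encode the sensors of foreign nucleic acids in human cells, the proteins that relay their signal, the type I interferon receptor and genes that interferon switches on. They were chosen by symbol, were looked up in the deposited count table through the GENCODE gene identifiers, and are 44 of the 78932 identifiers in it. RIG-I and MDA5 recognise RNA and signal through MAVS, whereas cGAS recognises DNA in the cytosol and signals through STING. Both routes activate the kinase TBK1 and the transcription factors IRF3 and IRF7, which turn on interferon genes. Secreted type I interferon binds the receptor IFNAR, and its kinases JAK1 and TYK2 activate the transcription factor complex ISGF3, which contains STAT2 and IRF9 and binds the interferon-stimulated response element of its target genes.

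The cells were cardiomyocytes made by differentiation of the established embryonic stem cell line H1. The knockdown group (5 libraries) received a GapmeR against an RNA named CLIPPER, and the control group (5 libraries) received a control GapmeR. A GapmeR is an antisense oligonucleotide that directs RNase H to the RNA it pairs with. Both groups were transfected with 50 nM of oligonucleotide in a cationic lipid reagent on day 9 of differentiation, when the cells were beating, and were harvested after 48 hours. Every library thus came from cells that had taken part in a transfection with an oligonucleotide, and untransfected cells were not analysed here. No gene in the annotation used here is named CLIPPER, so the labels were not checked against the targeted RNA.

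Each library held 32.9 to 45.1 in units of 1e6 counts, and 1 count in a library of mean size equals 0.0259 CPM (counts per 1e6 counts of the library). Values below are CPM after normalisation with the trimmed mean of M-values unless a sentence says otherwise. Markers of cardiomyocytes were present in both groups, with a summed level of 9735 to 15944 CPM in knockdown and 25229 to 34651 CPM in control libraries. Of the 8 cardiomyocyte markers, 0 were higher in knockdown, 7 were lower and 1 did not pass. In bulk samples, fewer cells of a type and less RNA per cell cannot be told apart. Of the 10 listed markers of leukocytes and macrophages 3 had enough counts to be tested, and 2 of them, CD68 and CD14, were higher in knockdown. The 10 summed to 1.88 to 6.83 CPM in knockdown and 0.720 to 1.09 CPM in control libraries. The common leukocyte marker PTPRC had 5 counts in all knockdown and 12 in all control libraries, and the T cell marker CD3E had 0 in every library. Smooth muscle markers were lower in 4 of 4 tested, endothelial markers in 3 of 4 and fibroblast markers in 4 of 7, where 1 was higher. As background for all marker counts, 40.1% of all genes tested were higher and 39.6% lower in knockdown. The tested endothelial markers had a median span, introns included, of 148 kb, and 82.7% of coding genes spanning 100 to 300 kb were lower. The pluripotency markers LIN28A and DPPA4, the 2 tested of 5, were higher (log2 fold change 3.27 and 2.93), and the 5 summed to 3.06 to 5.09 CPM in knockdown and 0.204 to 1.08 CPM in control libraries. Of the endoderm markers 1 of 2 tested was higher. The part of any of these shifts in the results below was not tested.

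Among all 21033 genes tested, 79.7% passed an adjusted p of 0.05 (edgeR's quasi-likelihood test with Benjamini-Hochberg adjustment, the source of every adjusted p below), 40.1% as higher and 39.6% as lower in knockdown. Among the sensing and interferon genes 41 of 44 were tested, and 14 were higher, 21 were lower and 6 did not pass. That is 34.1% higher and 51.2% lower of 41, against 40.1% and 39.6% of all genes, so a change by itself did not set these genes apart. Their median log2 fold change was -0.46, against 0.01 over all genes tested and -0.22 over the 14777 coding genes tested. In 28 of the 41 (68.3%) the knockdown and control libraries did not overlap, against 67.5% of all genes tested. These shares of all genes are the background for each count of calls or of non-overlap in a role group or list below. Called changes of at least 2-fold were seen upward in 7 of the 41 genes, against 24.3% of all genes tested. They were seen downward in 14 of the 41, against 24.2% of all genes tested. The 7 were DHX58, STING1, IRF7, ISG15, IFITM1, IFITM2 and IFITM3. The 14 were IFIH1, MAVS, IRF2, STAT2, JAK1, IFI27, IFI44, OAS1, OAS3, EIF2AK2, ISG20, MX1, DDX60 and SAMHD1. The 3 genes too scarce to be tested were CGAS, IFI44L and OAS2.

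**Figure D1:**
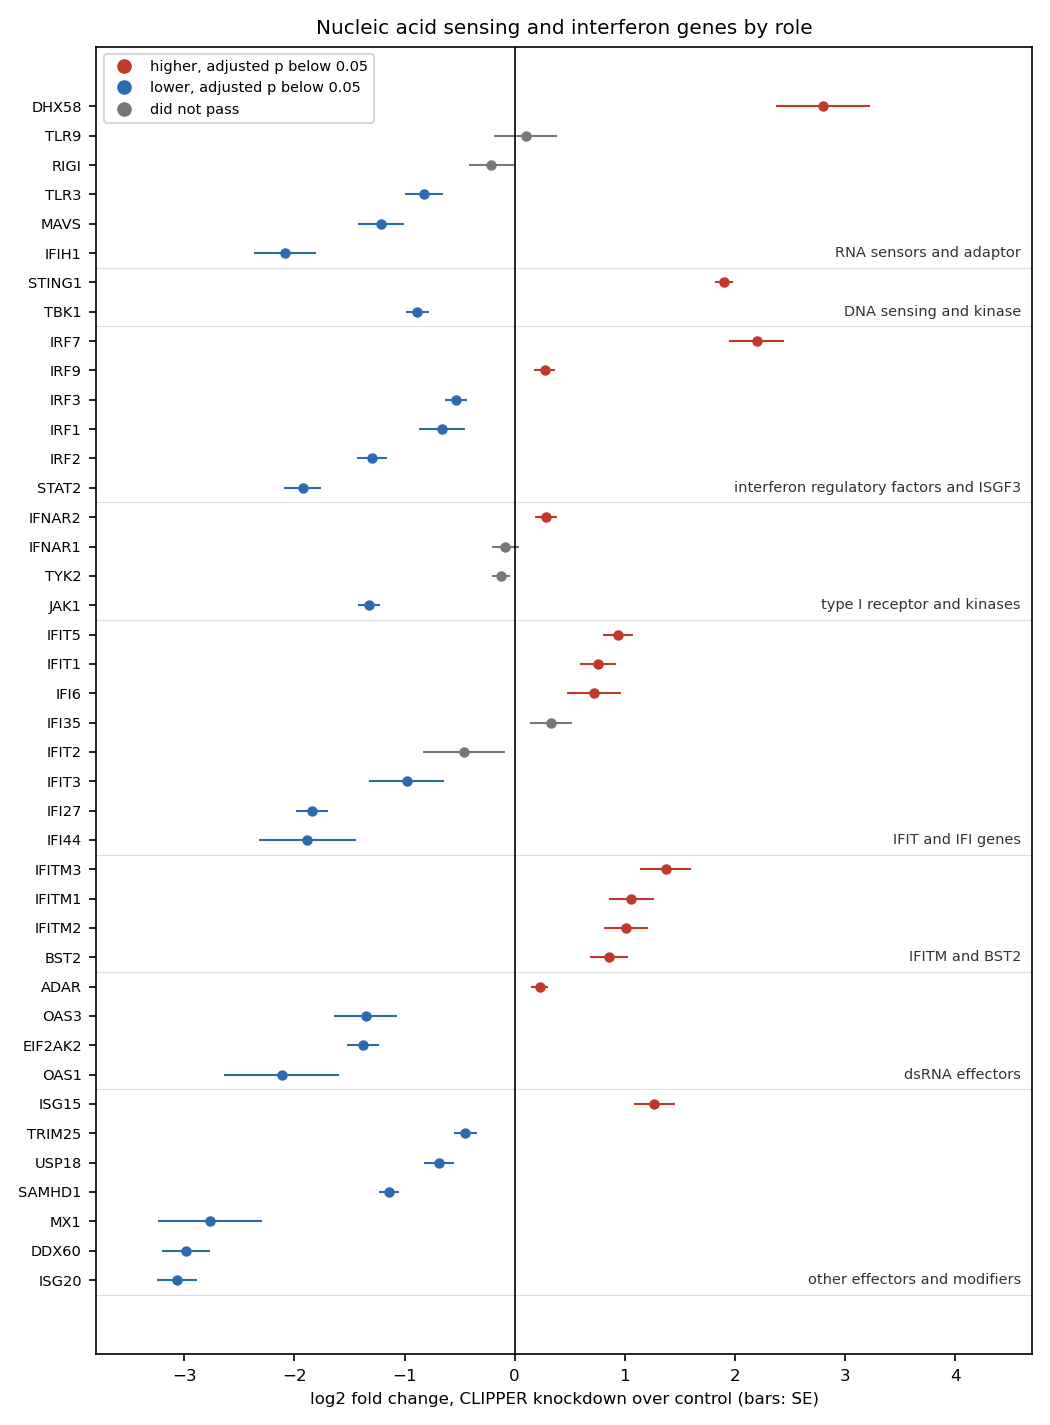
Log2 fold change of the 41 tested genes, knockdown over control, one gene per row and grouped by role (points; bars are SE, n = 5 libraries a group). Red points are the 14 genes higher in knockdown, blue points the 21 lower and grey points the 6 that did not pass an adjusted p of 0.05. The IFITM and BST2 group lies wholly right of 0, TLR9, a DNA receptor, is drawn with the RNA sensors, and the other role groups hold genes on both sides of 0.

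The interferon-stimulated response element was searched on both strands as GAAA, any 2 bases and GAAA (TTTC, any 2 bases and TTTC on the other strand) in RefSeq promoter windows of GRCh38.p14, from 250 bases before to 50 bases after the start. Entries were found for 33 of the 44 genes, and CGAS, IFNAR2, IFITM2, STING1, IFIT2, USP18, IRF3, IRF7, OAS2, DHX58 and IRF2 had none. The letters were in 18 of the 33 promoters (54.5%), against 1195 of 27305 promoters of all genes (4.38%). The list includes genes chosen as induced by interferon, so a higher share follows in part from the choice. The letters were in 7 of the 9 promoters of genes that were higher in knockdown and in 10 of the 18 of genes that were lower. They were in 0 of the 5 of genes that did not pass and in that of IFI44L, which was not tested. The 9 leave out DHX58, IRF7, STING1, IFITM2 and IFNAR2, which were higher, and the 18 leave out USP18, IRF3 and IRF2, which were lower. The letters TTC, any 3 bases and GAA, searched for the interferon gamma activated site, were in 10 of the 33 (30.3%), against 9.38% of all promoters. The windows below lie upstream of the start on the strand of the gene and are shown because genes of both directions carry matching letters. Capitals mark the match. In BST2 and ISG15 they cover 2 overlapping matches. The first 5 genes were higher in knockdown and the last 4 lower.

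BST2: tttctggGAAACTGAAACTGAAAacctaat
ISG15: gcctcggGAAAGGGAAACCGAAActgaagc
IFITM3: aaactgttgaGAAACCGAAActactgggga
IFIT1: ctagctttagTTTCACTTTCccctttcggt
IFIT5: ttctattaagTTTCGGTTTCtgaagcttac
DDX60: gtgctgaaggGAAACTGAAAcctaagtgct
ISG20: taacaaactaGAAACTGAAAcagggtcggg
OAS3: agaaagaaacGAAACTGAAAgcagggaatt
IFIH1: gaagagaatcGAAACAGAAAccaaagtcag

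The positions on GRCh38.p14 are chr19:17405738-17405767 on the minus strand for BST2, chr1:1013377-1013406 on the plus strand for ISG15 and chr11:320876-320905 on the minus strand for IFITM3. They are chr10:89392497-89392526 on the plus strand for IFIT1 and chr10:89414513-89414542 on the plus strand for IFIT5. Among the genes that were lower they are chr4:168318821-168318850 on the minus strand for DDX60, chr15:88638937-88638966 on the plus strand for ISG20, chr12:112938321-112938350 on the plus strand for OAS3 and chr2:162318686-162318715 on the minus strand for IFIH1. The 10 letters GAAACTGAAA occur in BST2, whose RNA was higher in knockdown, and in DDX60, ISG20 and OAS3, whose RNA was lower. A match is a description of the sequence, and no binding was measured.

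The 5 sensors of RNA or endosomal nucleic acids and the adaptor MAVS gave 1 higher in knockdown, 3 lower and 2 that did not pass. The median log2 fold change of this group was -0.52. IFIH1, which encodes MDA5, a sensor of long double-stranded RNA, had 0.648, 0.532, 0.418, 0.364 and 0.473 CPM in knockdown libraries 1 to 5, against 1.02, 1.77, 2.63, 2.64 and 2.49 CPM in control libraries 1 to 5. Every knockdown library lay below every control library, and control library 1 was the lowest of its group. IFIH1 was 4.25-fold lower (log2 fold change -2.09 ± 0.281 (SE, n = 5 each), adjusted p = 2.1e-05), on 97 counts in knockdown and 400 in control libraries. MAVS, the adaptor on mitochondria through which RIG-I and MDA5 signal, had 73.1, 96.3, 47.1, 42.1 and 50.3 CPM in knockdown, against 129.7, 159, 124, 145 and 159 CPM in control libraries. Knockdown libraries 1 and 2 were nearest to the control range but did not reach it. MAVS was 2.32-fold lower (log2 fold change -1.21 ± 0.206 (SE), adjusted p = 0.00015).

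DHX58 encodes LGP2, a helicase of the same family without the signalling domains of its relatives. It had 0.432, 0.425, 0.557, 0.939 and 0.693 CPM in knockdown, against 0.0509, 0.116, 0.179, 0.0539 and 0.0254 CPM in control libraries. The groups did not overlap, on 113 counts in knockdown and 16 in control, and DHX58 was 6.96-fold higher (log2 fold change 2.80 ± 0.426 (SE), adjusted p = 5.9e-05). TLR3, the endosomal receptor for double-stranded RNA, had 1.06, 1.11, 1.11, 0.818 and 0.756 CPM in knockdown, against 1.99, 1.58, 1.64, 1.54 and 1.90 CPM in control libraries. It was lower in all 5 knockdown libraries (log2 fold change -0.82 ± 0.169 (SE), adjusted p = 0.00066). RIGI, which encodes the sensor RIG-I, averaged 10.5 ± 2.42 CPM in knockdown and 12.2 ± 3.25 CPM in control libraries (SD, n = 5 each), and the groups overlapped (log2 fold change -0.21 ± 0.204 (SE), adjusted p = 0.35). TLR9, the endosomal receptor for unmethylated CpG DNA, averaged 0.538 ± 0.161 CPM in knockdown and 0.504 ± 0.174 CPM in control libraries (SD, n = 5 each) and did not pass (log2 fold change 0.10 ± 0.288 (SE), adjusted p = 0.76). Both values are uncertain, because 43.2% of the exon bases of RIGI and 99.7% of those of TLR9 lie in another coding gene on the same strand. Within the family of RNA helicases the sensors thus stood in 3 positions, with DHX58 higher, IFIH1 lower and RIGI within the spread of the libraries.

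On the DNA sensing route STING1 and TBK1 changed in opposite directions. STING1 encodes the adaptor STING of the endoplasmic reticulum, which is activated by the cyclic dinucleotide that cGAS makes. The gene lies at chr5:139475533-139482935 on the minus strand of GRCh38. It had 208, 201, 211, 222 and 203 CPM in knockdown libraries 1 to 5, against 60.2, 57.4, 58.3, 53.5 and 49.4 CPM in control libraries 1 to 5. The libraries of each group stood close together and the groups were far apart. STING1 was 3.75-fold higher (log2 fold change 1.91 ± 0.0825 (SE, n = 5 each), adjusted p = 9.7e-09). Per kilobase of exon its level was 43.5 CPM in knockdown and 11.6 CPM in control. Macrophages express STING1, and CD68 averaged 1.85 ± 0.720 CPM in knockdown and 0.149 ± 0.130 CPM in control (SD, n = 5 each). CD14 averaged 1.90 ± 1.54 CPM in knockdown and 0.196 ± 0.106 CPM in control (SD, n = 5 each). In knockdown libraries 1 to 5 CD14 was at 0.367, 0.191, 3.20, 3.42 and 2.33 CPM. CD68 was at 1.06, 1.17, 2.40, 2.67 and 1.99 CPM in the same libraries. Among the other listed markers, LYZ had 6 counts in all knockdown and 24 in all control libraries, and CD163 had 27 and 29. ITGAM had 42 and 17, AIF1 had 9 and 5, and CSF1R, which did not pass, had 60 and 34. CD68 and CD14 span 2.62 and 1.97 kb, and of coding genes that span 1 to 3 kb 74.8% were higher. The part of macrophage markers in the rise was not tested.

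TBK1, the kinase that phosphorylates IRF3, had 19.2, 20.1, 16.1, 14.0 and 15.4 CPM in knockdown, against 31.6, 30.1, 33.1, 30.7 and 31.2 CPM in control libraries. It was lower in all 5 knockdown libraries (1.85-fold, log2 fold change -0.88 ± 0.105 (SE), adjusted p = 7.4e-06). CGAS, the DNA sensor itself, was scarce in both groups, with 28 counts in all knockdown and 59 in all control libraries. Its level ran over 0.0648, 0.191, 0.195, 0.121 and 0.158 CPM in knockdown, against 0.357, 0.302, 0.388, 0.162 and 0.330 CPM in control libraries, and the groups overlapped. With no filter on low counts CGAS passed as lower (log2 fold change -1.10, adjusted p = 0.035).

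Among the 6 transcription factors, interferon regulatory factors and STAT2, 2 were higher and 4 lower in knockdown (median log2 fold change -0.60). IRF7, the factor that drives most interferon alpha genes and is itself induced by interferon, lies at chr11:612553-615983 on the minus strand. It had 11.2, 6.44, 15.5, 17.0 and 15.5 CPM in knockdown, against 2.90, 2.32, 3.73, 2.96 and 2.39 CPM in control libraries. All knockdown libraries lay above all control libraries, with knockdown library 2 nearest to them. IRF7 was 4.59-fold higher (log2 fold change 2.20 ± 0.249 (SE), adjusted p = 5e-06). IRF3, the factor present in cells before infection, had 17.1, 21.2, 17.7, 15.0 and 16 CPM in knockdown, against 23.4, 25.6, 23.7, 25.8 and 27.3 CPM in control libraries. It was 1.45-fold lower with no overlap between groups (log2 fold change -0.53 ± 0.102 (SE), adjusted p = 0.00039), and BCL2L12 shares 19.3% of its exon bases on the opposite strand.

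STAT2 and IRF9, subunits of ISGF3, differed in direction. STAT2 had 14.2, 17.2, 11.3, 8.27 and 12.4 CPM in knockdown, against 42.6, 44.7, 52.5, 51.3 and 50.7 CPM in control libraries. The highest knockdown library stood far below the lowest control library, and STAT2 was 3.80-fold lower (log2 fold change -1.93 ± 0.165 (SE), adjusted p = 5.7e-07). IRF9, the DNA-binding partner of the complex, had 55.7, 46.4, 54.8, 55.7 and 61.9 CPM in knockdown, against 43.0, 43.5, 51.1, 48.7 and 40.9 CPM in control libraries. The groups overlapped through knockdown library 2. IRF9 was higher by a small amount (log2 fold change 0.27 ± 0.0952 (SE), adjusted p = 0.019), a call that was lost when knockdown library 5 or control library 1, 2 or 5 was left out, and 23.9% of its exon bases lie in another coding gene on the same strand.

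IRF2, which competes with IRF1 for its sites, had 5.96, 6.97, 4.65, 4.67 and 5.36 CPM in knockdown, against 12.9, 11.8, 15.9, 13.0 and 14.5 CPM in control libraries. It was 2.46-fold lower (log2 fold change -1.30 ± 0.135 (SE), adjusted p = 2.5e-06) with no overlap. IRF1, an activator induced by interferon gamma, had 8.25, 6.19, 9.56, 9.85 and 10.3 CPM in knockdown, against 12.4, 8.36, 20.1, 14.8 and 14.0 CPM in control libraries. Control library 2 lay inside the knockdown range. IRF1 was lower (log2 fold change -0.66 ± 0.209 (SE), adjusted p = 0.011), which did not pass with upper-quartile scaling, and its antisense gene IRF1-AS1 shares 22.9% of its exon bases.

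**Figure D2:**
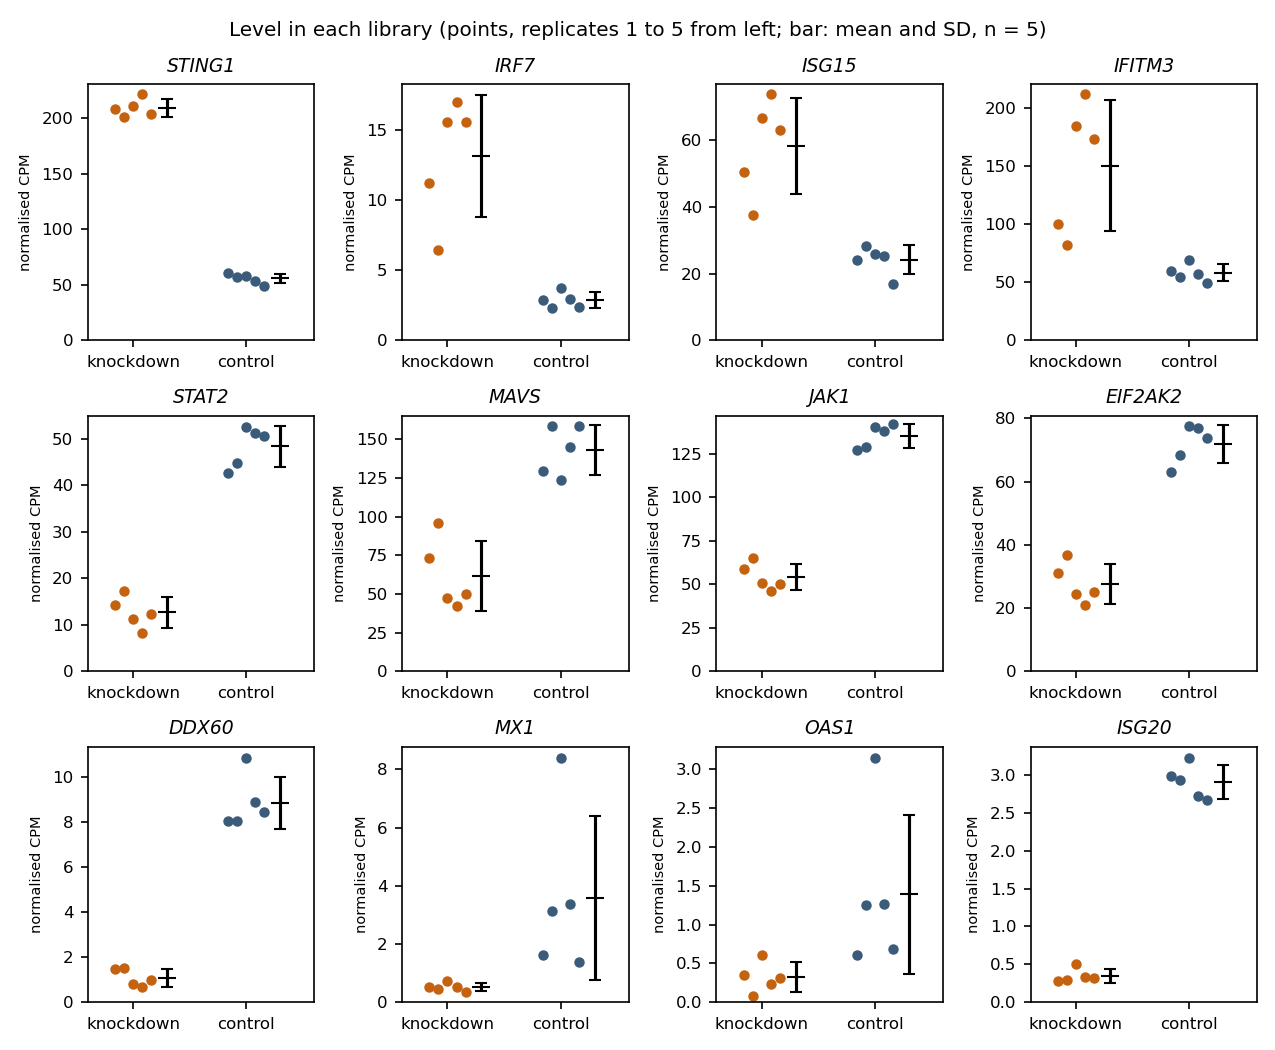
Level of 12 genes in each library, in normalised CPM on axes that start at 0, with knockdown left of control and replicates 1 to 5 from left to right in each group (points; black marks are the mean and SD, n = 5). STING1, IRF7, ISG15 and IFITM3 lie higher in all 5 knockdown libraries, and STAT2, MAVS, JAK1, EIF2AK2, DDX60, MX1 and ISG20 lie lower in all 5. OAS1 lies lower on average with overlap, and control library 3 stands out in MX1 and OAS1.

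Of the 4 genes of the type I interferon receptor and its kinases, 1 was higher, 1 was lower and 2 did not pass. JAK1, the kinase bound to IFNAR2, had 59.0, 65.0, 50.5, 46.2 and 50.2 CPM in knockdown, against 127, 129, 140.2, 138 and 142 CPM in control libraries. The groups were far apart and JAK1 was 2.50-fold lower (log2 fold change -1.32 ± 0.101 (SE), adjusted p = 2.6e-07). TYK2, the kinase bound to IFNAR1, averaged 49.3 ± 3.21 CPM in knockdown and 53.7 ± 4.08 CPM in control libraries (SD, n = 5 each), which did not pass (log2 fold change -0.13 ± 0.0808 (SE), adjusted p = 0.17). IFNAR1 averaged 24.8 ± 4.7 CPM in knockdown and 26.4 ± 1.32 CPM in control libraries (SD, n = 5 each) and did not pass either (log2 fold change -0.08 ± 0.121 (SE), adjusted p = 0.53), although it passed as lower without knockdown libraries 1 and 2 (-0.29, adjusted p = 0.0043). IFNAR2, the chain that binds interferon with high affinity, had 15.3, 16.5, 14.2, 14.2 and 13.5 CPM in knockdown, against 11.9, 10.9, 11.9, 11.3 and 14.5 CPM in control libraries. Control library 5 lay inside the knockdown range. IFNAR2 was higher (log2 fold change 0.29 ± 0.102 (SE), adjusted p = 0.021), which did not pass once control library 1, 2, 3 or 4 was left out, and the read-through gene IFNAR2-IL10RB shares 14.7% of its exon bases. At the receptor, then, the RNA of JAK1 was lower while that of its partner kinase was within the spread of the libraries. JAK1 spans 235 kb, and of coding genes that span 100 to 300 kb 82.7% were lower.

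The ligands of this receptor were close to absent. The 21 interferon genes of types I, II and III listed had 44 counts in all knockdown and 47 in all control libraries, and 8 of them had 0 counts in every library. IFNA5 held 32 of the knockdown and 17 of the control counts. IFNB1, the interferon that most cells make, had 0 counts in knockdown and 2 in control libraries. None of the 21 had enough counts for a test of the difference between the groups. Of the 5 tested genes in the list of ligands and other interferon receptors 0 were higher, 4 were lower and 1 did not pass. IL10RB, a chain of the interferon lambda receptor, averaged 3.97 ± 0.849 CPM in knockdown and 8.77 ± 0.954 CPM in control (log2 fold change -1.14), although it shares a read-through gene with IFNAR2. IFNGR2 averaged 12.4 ± 3.17 CPM in knockdown and 24.8 ± 1.82 CPM in control (log2 fold change -0.99), and JAK2 9.35 ± 2.65 CPM in knockdown and 15.8 ± 1.23 CPM in control (log2 fold change -0.75; SD, n = 5 each). Both act downstream of interferon gamma.

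The genes that interferon induces did not move together. All genes tested were split as well, 40.1% higher and 39.6% lower, so a split by itself did not set the induced genes apart. The IFIT and IFI genes gave 3 higher, 3 lower and 2 that did not pass among 8 tested, with a median log2 fold change of -0.07. The 4 IFIT genes, whose proteins bind foreign RNA ends or support those that do, are neighbours on chromosome 10. They lie at chr10:89283694-89309271 (IFIT2), 89327307-89377473 (IFIT3), 89392546-89406487 (IFIT1) and 89414568-89421605 (IFIT5). IFIT1, which binds RNA lacking the cap methylation of the host, had 57.8, 41.8, 60.02, 66.6 and 64.0 CPM in knockdown, against 23.3, 31.5, 39.3, 36.0 and 41.5 CPM in control libraries. Knockdown library 2 lay just above control library 5, and IFIT1 was 1.69-fold higher (log2 fold change 0.76 ± 0.163 (SE), adjusted p = 0.00093). IFIT5 had 13.5, 13.2, 17.9, 18.4 and 16.9 CPM in knockdown, against 8.40, 7.97, 7.85, 10.4 and 7.004 CPM in control libraries. It was higher in all 5 knockdown libraries (1.92-fold, log2 fold change 0.94 ± 0.135 (SE), adjusted p = 3.8e-05).

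The other two IFIT genes were scarce. IFIT3, a partner of IFIT1, had 0.281, 0.510, 0.362, 0.273 and 0.410 CPM in knockdown, against 0.280, 0.558, 0.955, 0.889 and 0.990 CPM in control libraries. Control library 1 lay inside the knockdown range, and IFIT3 was lower (log2 fold change -0.98 ± 0.342 (SE), adjusted p = 0.019) on 72 counts in knockdown and 139 in control, a call that limma-voom did not make. IFIT2 averaged 0.413 ± 0.239 CPM in knockdown and 0.573 ± 0.146 CPM in control libraries (SD, n = 5 each) and did not pass (log2 fold change -0.46 ± 0.373 (SE), adjusted p = 0.27). Neighbouring IFIT genes thus stood in opposite directions, IFIT1 and IFIT5 higher and IFIT3, on few counts, lower. On the opposite strand LIPA, with 3613 counts in all libraries, shares 1.86% of the exon bases of IFIT3 and 1.5% of those of IFIT2. A noncoding gene on the same strand shares 12.1% of those of IFIT2, so the values of IFIT3 and IFIT2 are uncertain.

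IFI27, a mitochondrial protein induced strongly by interferon alpha, had 1.08, 0.808, 1.11, 0.848 and 0.977 CPM in knockdown, against 3.74, 3.25, 3.19, 3.66 and 3.48 CPM in control libraries. The groups were well apart, and IFI27 was 3.58-fold lower (log2 fold change -1.84 ± 0.143 (SE), adjusted p = 2.7e-07). IFI6, a related mitochondrial protein, had 20.9, 15.4, 36.4, 44 and 34.5 CPM in knockdown, against 17.2, 17.3, 23.2, 18.3 and 15.7 CPM in control libraries. Knockdown library 2 was the lowest of all 10 and knockdown libraries 3 to 5 the highest. IFI6 was higher on average (1.65-fold, log2 fold change 0.72 ± 0.245 (SE), adjusted p = 0.017). IFI44, a cytoplasmic protein of the response, had 0.173, 0.106, 0.195, 0.0606 and 0.315 CPM in knockdown, against 0.229, 0.790, 1.01, 0.566 and 0.533 CPM in control libraries. Knockdown library 5 lay above control library 1. IFI44 was 3.69-fold lower (log2 fold change -1.88 ± 0.444 (SE), adjusted p = 0.0018) on 32 counts in knockdown and 119 in control. Its neighbour IFI44L was not tested and had 19 counts in knockdown and 86 in control. IFI35 averaged 3.06 ± 0.518 CPM in knockdown and 2.44 ± 0.626 CPM in control libraries (SD, n = 5 each) and did not pass (log2 fold change 0.33 ± 0.191 (SE), adjusted p = 0.13). It passed as higher with upper-quartile scaling (0.53, adjusted p = 0.024) and without control library 3 (0.45, adjusted p = 0.038).

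The membrane proteins that block virus entry or release formed the single role group with every member in one direction, 4 of 4 higher in knockdown and none overlapping (median log2 fold change 1.03). IFITM1, IFITM2 and IFITM3 lie side by side at chr11:310041-315272, 303655-309397 and 319676-329475. IFITM3, which acts in endosomes, had 99.9, 82.1, 184, 212 and 173 CPM in knockdown, against 59.5, 54.7, 69.5, 56.9 and 49.5 CPM in control libraries. IFITM2, also of endosomes, had 49.5, 40.7, 82.9, 92.1 and 72.5 CPM in knockdown, against 35.9, 34.3, 34.5, 35.1 and 27.8 CPM in control libraries. IFITM1, of the cell surface, had 6.39, 5.68, 10.2, 10.5 and 9.26 CPM in knockdown, against 3.97, 3.65, 5.34, 4.17 and 2.97 CPM in control libraries. In all of them knockdown libraries 1 and 2 were nearest to the control range and library 4 was the highest.

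The rises were 2.59-fold for IFITM3 (log2 fold change 1.37 ± 0.234 (SE), adjusted p = 0.00015), 2.01-fold for IFITM2 (1.01 ± 0.198, adjusted p = 0.00047) and 2.08-fold for IFITM1 (1.06 ± 0.205, adjusted p = 0.00041). The 3 genes are near-identical copies in part of their sequence, so reads may have been split or dropped among them and their separate values are uncertain. BST2, which encodes tetherin and holds budding virus at the membrane, averaged 9.68 ± 1.03 CPM in knockdown and 5.34 ± 1.43 CPM in control libraries (SD, n = 5 each) and was 1.82-fold higher (log2 fold change 0.86 ± 0.172 (SE), adjusted p = 0.00054). These 4 genes span 2.69 to 9.80 kb. Of the coding genes that span 1 to 3 kb 74.8% were higher in knockdown, and of those that span 3 to 10 kb 64.4% were.

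Of the enzymes that act on double-stranded RNA, 1 was higher and 3 were lower among 4 tested (median log2 fold change -1.36). The OAS enzymes make the messenger that activates RNase L. OAS1 had 0.345, 0.0851, 0.613, 0.242 and 0.315 CPM in knockdown, against 0.611, 1.25, 3.13, 1.27 and 0.685 CPM in control libraries. Knockdown library 3 just reached control library 1. OAS1 was 4.34-fold lower (log2 fold change -2.12 ± 0.526 (SE), adjusted p = 0.0026), and -1.61 without control library 3, which stood far above the others. OAS3 had 0.756, 0.787, 0.669, 0.454 and 0.536 CPM in knockdown, against 1.04, 1.32, 2.33, 2.45 and 1.17 CPM in control libraries, with no overlap. It was 2.55-fold lower (log2 fold change -1.35 ± 0.285 (SE), adjusted p = 0.00081). OAS2 had 2 counts in all knockdown and 36 in all control libraries and was not tested. Its level in knockdown was 0.0551 of that in control, with a counting interval of 95% from 0.00643 to 0.214 that covers counting error only.

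EIF2AK2 encodes PKR, which stops translation when it binds double-stranded RNA. It had 31.2, 36.7, 24.4, 20.9 and 25.2 CPM in knockdown, against 63.1, 68.5, 77.5, 76.9 and 73.8 CPM in control libraries. The groups were far apart, and EIF2AK2 was 2.60-fold lower (log2 fold change -1.38 ± 0.141 (SE), adjusted p = 2.2e-06). ADAR, which edits adenosine in double-stranded RNA and so hides it from MDA5 and PKR, had 289, 272, 258, 259 and 274 CPM in knockdown, against 221, 223, 245, 229 and 236 CPM in control libraries. All knockdown libraries lay above all control libraries by a small margin (1.17-fold, log2 fold change 0.23 ± 0.0788 (SE), adjusted p = 0.018). That call was lost when control library 1, 2 or 4 was left out.

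Among the remaining effectors and modifiers 1 of 7 was higher and 6 were lower, none overlapping (median log2 fold change -1.14). Of all genes tested 39.6% were lower and 67.5% did not overlap. The median span of the 7 genes was 50.1 kb, and of coding genes that span 30 to 100 kb 57.0% were lower. That class depends on the annotation. With RefSeq gene lengths the middle of the 7 was USP18 at 27.2 kb, and of coding genes that span 10 to 30 kb in GENCODE 29.1% were lower. ISG15, a ubiquitin-like protein that is joined to other proteins, had 50.4, 37.5, 66.6, 73.8 and 63.1 CPM in knockdown, against 24.1, 28.4, 26.0, 25.4 and 17.0 CPM in control libraries. All knockdown libraries lay above all control libraries. ISG15 was 2.41-fold higher (log2 fold change 1.27 ± 0.184 (SE), adjusted p = 4e-05). Per kilobase of exon it had the highest level of the 44 genes, 67.2 CPM in knockdown and 27.9 CPM in control. USP18, the protease that removes ISG15 and also dampens receptor signalling, averaged 6.96 ± 0.730 CPM in knockdown and 11.2 ± 2.18 CPM in control libraries (SD, n = 5 each) and was lower (log2 fold change -0.69 ± 0.138 (SE), adjusted p = 0.00057). TRIM25, a ubiquitin ligase that acts on RIG-I, averaged 19.1 ± 1.02 CPM in knockdown and 26.0 ± 3.64 CPM in control libraries (SD, n = 5 each) and was lower (log2 fold change -0.45 ± 0.104 (SE), adjusted p = 0.0016).

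ISG20, an exonuclease, had 0.281, 0.298, 0.502, 0.333 and 0.315 CPM in knockdown, against 2.98, 2.93, 3.22, 2.72 and 2.66 CPM in control libraries. Its fall was the largest among the 41 tested genes, 8.39-fold (log2 fold change -3.07 ± 0.184 (SE), adjusted p = 5.3e-08), on 66 counts in knockdown and 557 in control. DDX60, a helicase of the antiviral response, had 1.49, 1.53, 0.808, 0.666 and 0.977 CPM in knockdown, against 8.05, 8.02, 10.8, 8.89 and 8.43 CPM in control libraries. It was 7.92-fold lower with a wide gap between groups (log2 fold change -2.99 ± 0.220 (SE), adjusted p = 1.9e-07). SAMHD1, which hydrolyses the nucleotides needed to copy viral DNA, had 12.6, 14.2, 12.6, 11.5 and 14.3 CPM in knockdown, against 25.9, 28.4, 29.7, 29.98 and 29.9 CPM in control libraries. It was 2.20-fold lower (log2 fold change -1.14 ± 0.0897 (SE), adjusted p = 2.9e-07). MX1, a GTPase that traps viral capsids, had 0.518, 0.468, 0.725, 0.545 and 0.347 CPM in knockdown, against 1.63, 3.14, 8.38, 3.39 and 1.40 CPM in control libraries. The groups did not overlap, while control library 3 stood far above the other control libraries. MX1 was 6.82-fold lower (log2 fold change -2.77 ± 0.474 (SE), adjusted p = 0.00016), and the log2 fold change was -2.21 without control library 3.

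The libraries of each group were not alike over these genes. The 14 genes that were higher in knockdown stood above the control mean by a median of 0.74, 0.51, 1.21, 1.33 and 1.08 on the log2 scale in knockdown libraries 1 to 5. The 21 that were lower stood at -1.18, -1.01, -1.33, -1.68 and -1.43, with control libraries between -0.22 and 0.20 for both sets. Knockdown library 2 was thus nearest to control in both directions and library 4 farthest. Among all coding genes tested, the median log2 difference from control of genes spanning over 100 kb, minus that of genes spanning up to 10 kb, was -1.92, -1.44, -2.46, -2.75 and -2.42 in the same libraries, and -0.06 to 0.05 in control libraries. By that measure too, knockdown library 2 was nearest to control and knockdown library 4 farthest. Among control libraries number 3 was the highest in 26 of the 44 genes (59.1%), against 23.0% of all genes tested.

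**Figure D3:**
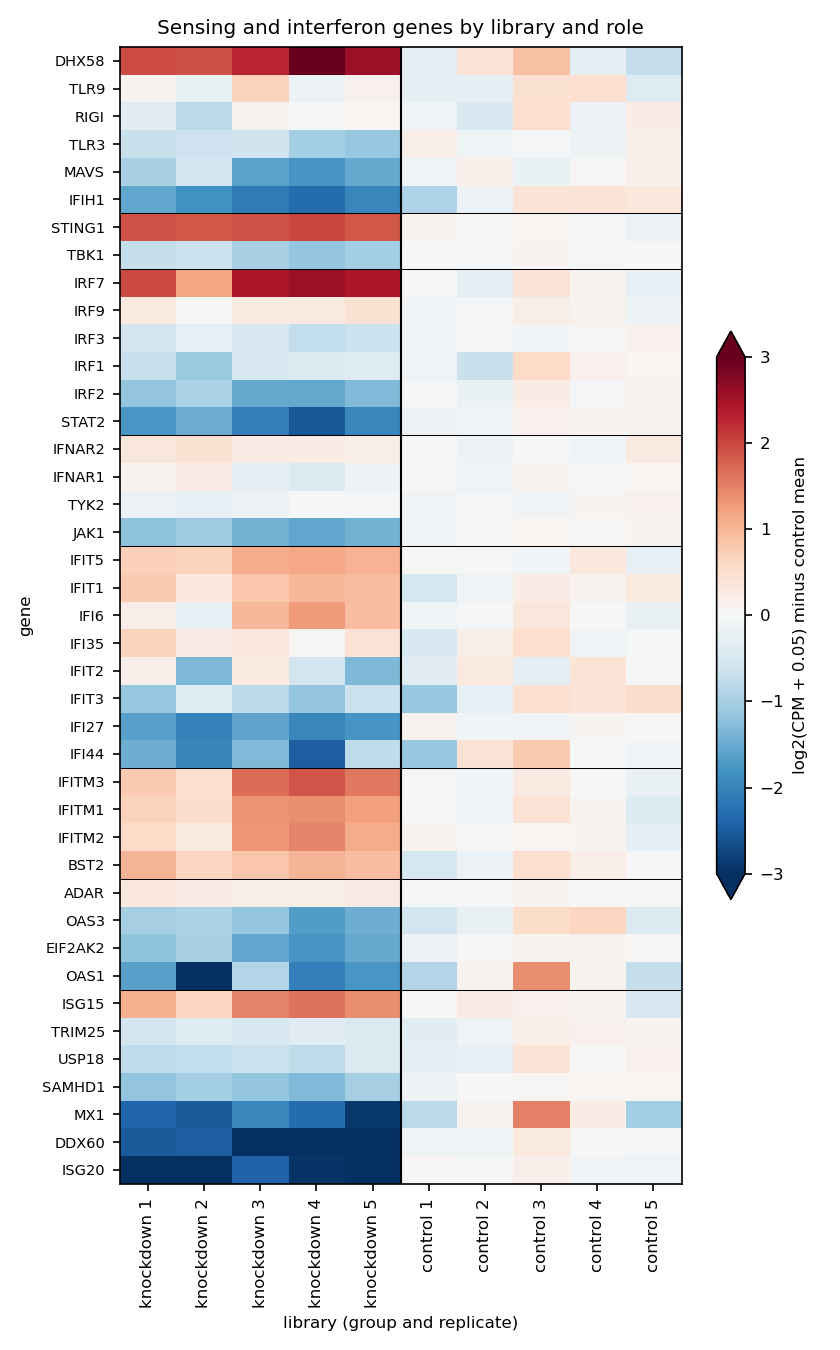
Level of the 41 tested genes in each of the 10 libraries as log2(CPM + 0.05) minus the mean of the control libraries, with genes in rows by role and libraries in columns, knockdown left of control. Red is above and blue below the control mean, and colours saturate at -3 and 3. Knockdown library 2 is palest among the rises (median 0.51), and control library 3 carries the strongest red among control libraries in MX1 and OAS1.

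Direction went along with gene span, the distance from the start to the end of a gene with its introns. The 14 genes that were higher had a median span of 7.22 kb (2.69 to 60.4 kb), and the 21 that were lower 50.0 kb (6.31 to 235 kb). With RefSeq gene lengths these medians were 5.71 kb and 27.2 kb. Across the 41 tested genes the rank correlation of log2 fold change with span was -0.60, and across the 14777 coding genes tested it was -0.60 as well. Both are descriptions, over genes that share the same 10 libraries. The part of span in the calls was not tested, but each gene can be set beside coding genes of its own span class. The class median was 0.71 for 3 to 10 kb, 0.27 for 10 to 30 kb, -0.48 for 30 to 100 kb and -1.30 for 100 to 300 kb.

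Of all 41 tested genes 7 lay above the interquartile range of their class, 17 inside it and 17 below it. Genes taken for being higher or lower tend to lie on that side of their class, so the split by call is a description. Of the 14 higher genes 7 lay above the interquartile range of their class, namely DHX58, STING1, IRF7, IFNAR2, ISG15, IFITM3 and ADAR, and 7 lay inside it. STING1 stood 1.20 and IRF7 1.49 above the class median on the log2 scale. Of the 21 lower genes 16 lay below the interquartile range of their class and 5 inside it, which were TBK1, IRF1, JAK1, IFIT3 and TRIM25. The genes farthest from their class median on that side were ISG20 at -3.33, OAS1 at -2.38 and MX1 at -2.29. IRF3 spans 6.31 kb, in a class where 64.4% of coding genes were higher, and was lower. JAK1 spans 235 kb and stood at -0.02 from its class median. With gene lengths from RefSeq, where ISG15 and the IFITM genes are shorter, 5 of the higher genes lay above and 17 of the lower genes below the interquartile range, and ISG15, IFITM3 and SAMHD1 came inside it, while IRF1 and IFIT3 came below it.

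**Figure D4:**
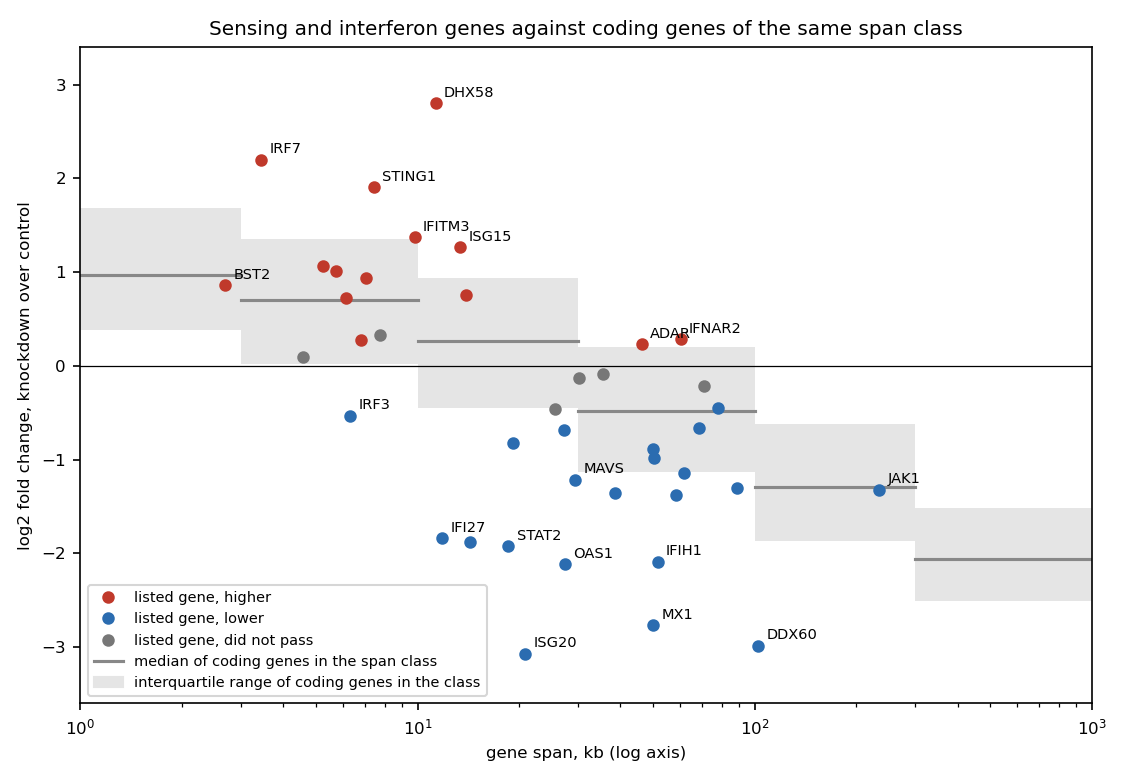
Log2 fold change of the 41 tested genes (points, knockdown over control) against gene span in kb on a log axis, with the median (grey line) and interquartile range (grey band) of coding genes in each span class. DHX58, IRF7 and STING1 lie above the band of their class, and ISG20, DDX60, MX1, IFIH1 and STAT2 lie below it.

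Genes of the same pathways outside the 44 were counted from 5 lists. Of 111 tested genes 40 were higher and 57 lower in knockdown, with 79.7% of all genes passing. Among 50 tested interferon-induced genes 16 were higher and 30 were lower (median log2 fold change -0.79), and the remaining 4 did not pass. The cytidine deaminases APOBEC3F and APOBEC3C were higher. APOBEC3F averaged 26.6 ± 3.13 CPM in knockdown and 5.78 ± 1.06 CPM in control (log2 fold change 2.20), and APOBEC3C 143 ± 16.6 CPM in knockdown and 52.7 ± 3.29 CPM in control (log2 fold change 1.44; SD, n = 5 each). Both belong to a family of close copies. HLA-E, which presents peptides to natural killer cells, averaged 46.9 ± 12.8 CPM in knockdown and 9.81 ± 0.429 CPM in control (log2 fold change 2.25). The falls were led by PLSCR1, a phospholipid scramblase, with 2.33 ± 0.543 CPM in knockdown and 11.5 ± 2.37 CPM in control (log2 fold change -2.30). NLRC5, the activator of HLA class I genes, averaged 0.685 ± 0.150 CPM in knockdown and 3.27 ± 0.612 CPM in control (log2 fold change -2.24). PARP12 averaged 3.48 ± 0.942 CPM in knockdown and 12.7 ± 1.01 CPM in control (log2 fold change -1.86). Commonly used markers of an interferon response, RSAD2, MX2, OASL, CXCL10, CXCL11 and CCL5, were too scarce to be tested. RSAD2, which encodes viperin, had 23 counts in all knockdown and 104 in all control libraries, and its groups did not overlap. MX2 had 29 counts in knockdown and 52 in control, CCL5 had 14 and 19, CXCL11 had 3 and 7, and OASL had 1 and 7. CXCL10 went the other way, with 10 counts in knockdown and 5 in control.

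The other sensing and relay genes gave 10 higher and 8 lower of 22 tested (median log2 fold change 0.07). TBKBP1, an adaptor that binds TBK1, averaged 295 ± 53.8 CPM in knockdown and 46.6 ± 1.13 CPM in control (log2 fold change 2.66; SD, n = 5 each). TRAF3, the ubiquitin ligase between MAVS and TBK1, averaged 6.24 ± 1.97 CPM in knockdown and 55.3 ± 6.18 CPM in control (log2 fold change -3.14). IKBKE, the kinase related to TBK1, averaged 5.18 ± 1.32 CPM in knockdown and 12.3 ± 1.34 CPM in control (log2 fold change -1.24). Both kinases and TRAF3 were thus lower, while the adaptor TBKBP1 was higher. On the route from the endosomal receptors, IRAK1 averaged 91.5 ± 12.6 CPM in knockdown and 38 ± 2.73 CPM in control (log2 fold change 1.27) and MYD88 15.4 ± 1.13 CPM in knockdown and 7.99 ± 0.282 CPM in control (log2 fold change 0.95). IFI16, a nuclear sensor of DNA, averaged 4.72 ± 0.885 CPM in knockdown and 14.1 ± 2.11 CPM in control (log2 fold change -1.57).

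Among nucleases that remove nucleic acids 4 were higher and 7 lower of 12 tested (median log2 fold change -0.43). The number higher was 1 without control library 1 and 2 without control library 4. RNASEH1, the enzyme that cuts RNA in hybrids with DNA and that GapmeRs depend on, averaged 11.8 ± 4.06 CPM in knockdown and 42.0 ± 1.54 CPM in control (log2 fold change -1.82; SD, n = 5 each). XRN1, the main 5′ to 3′ exonuclease of the cytoplasm, averaged 26.4 ± 6.11 CPM in knockdown and 87.3 ± 4.67 CPM in control (log2 fold change -1.72). SKIC3, a subunit of the complex that feeds RNA to the exosome, averaged 33.1 ± 10.1 CPM in knockdown and 112 ± 5.98 CPM in control (log2 fold change -1.76). RNASEH2C, a subunit of the other RNase H, averaged 49.8 ± 9.99 CPM in knockdown and 19.6 ± 1.51 CPM in control (log2 fold change 1.34). SKIC2 and DNASE2 were higher by small amounts (log2 fold change 0.21 and 0.34).

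The feedback inhibitors gave 10 higher and 8 lower of 22 tested (median log2 fold change 0.13). SOCS1, which blocks JAK kinases and is itself induced by interferon, averaged 5.46 ± 2.27 CPM in knockdown and 1.39 ± 0.314 CPM in control (log2 fold change 1.97; SD, n = 5 each). SOCS5 averaged 49.2 ± 3.25 CPM in knockdown and 27.2 ± 0.857 CPM in control (log2 fold change 0.85), and the phosphatase PTPN1 88.3 ± 2.73 CPM in knockdown and 54.7 ± 6.29 CPM in control (log2 fold change 0.69). The phosphatases PTPN2 and PTPN11 moved the other way. PTPN2 averaged 8.49 ± 1.96 CPM in knockdown and 27.0 ± 1.01 CPM in control (log2 fold change -1.66), and PTPN11 51.3 ± 14.4 CPM in knockdown and 209.7 ± 32.3 CPM in control (log2 fold change -2.03). OTUD5, a deubiquitinase that acts on TRAF3, averaged 23.8 ± 0.234 CPM in knockdown and 48.0 ± 0.847 CPM in control (log2 fold change -1.01).

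**Figure D5:**
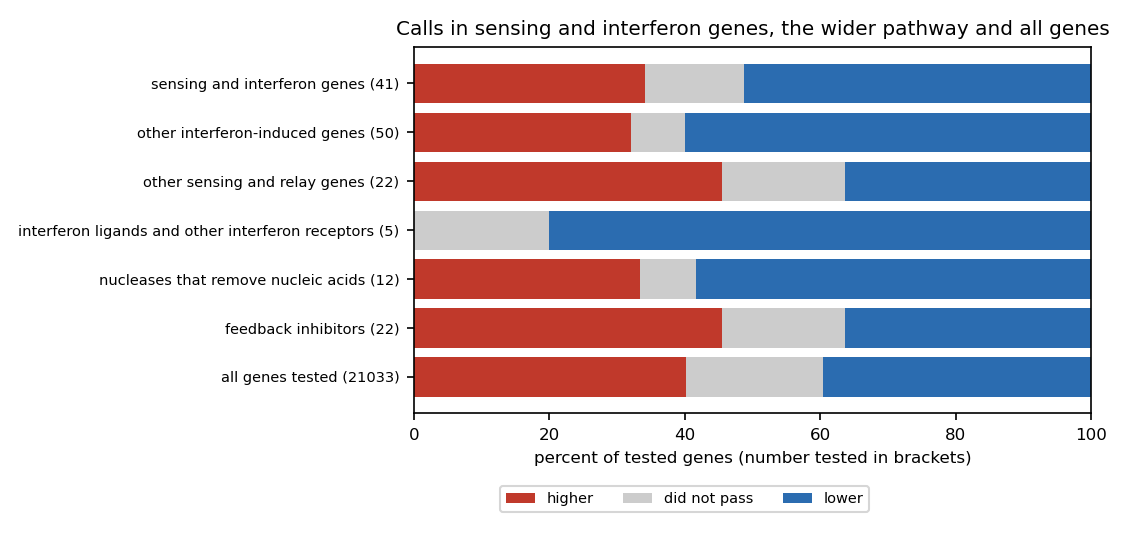
Percent of tested genes that were higher (red), did not pass (grey) or were lower (blue) in knockdown, for the sensing and interferon genes, 5 lists of related genes and all genes tested, with the number tested in brackets. The sensing and interferon genes stand at 34.1% higher and 51.2% lower, and all genes at 40.1% and 39.6%.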

How the data were processed

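The deposited table holds whole-number read counts per gene for 78932 gene identifiers in 10 libraries of total RNA. Per the labels' protocols and the design text, the libraries were stranded with ribosomal RNA removed. Per the submitters' processing notes, the authors used Trim Galore 0.65 for trimming, STAR 2.7.0 for alignment to GRCh38 and HTSeq for counting, whose strand setting is not given in the sources used here. Values of genes that overlap others are therefore uncertain. The titles of the samples gave groups and replicate numbers, and 0 sample columns were left unmapped. Names, positions and spans came from GENCODE release 44, which named 61481 identifiers. The remaining 17451, with 0.250% to 0.408% of a library's counts, stayed in the fit unnamed.

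After filterByExpr and scaling by the trimmed mean of M-values, edgeR 4.0.16 in R 4.3.3 gave quasi-likelihood F tests with robust dispersions, and p-values of 21033 genes were adjusted by Benjamini-Hochberg and read at 0.05. The standard error is the size of the log2 fold change over the root of its F statistic. A fold change is set against the bulk of genes, not against RNA per cell. The labels do not say that replicates came from separate cultures, so p-values measure only how these samples vary, which may be technical. Counts and intervals cover counting error only. Every pair of libraries differed by more than sampling noise (chi-square per degree of freedom of 4.13 or more).

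The 44 genes and the gene lists were chosen with earlier results of these data known. Per-library values are given, in each role group, for up to 3 rises and 3 falls with the smallest p and for called genes whose groups overlap. From each list up to 3 rises and 3 falls with the smallest p and a mean of at least 1 CPM are named. The marker genes, the untested interferon-induced genes and the interferon ligands were named beside that rule. Alternatives were other size factors, DESeq2 1.42.0, limma-voom (limma 3.58.1), other filters, no robust dispersion, removal of mitochondrial genes, a replicate block, and leaving out each library or knockdown replicates 1 and 2 together. RefSeq gene lengths were added after the data were seen. The fit was run on simulated data of 20905 genes, in which 67 changed 1.5-fold, 67 changed 2-fold and 66 changed 4-fold. It recovered 35.8% of the 1.5-fold, 82.1% of the 2-fold and 100% of the 4-fold changes, and 3.33% of its calls were false. In the data 79.7% of genes passed, a case that the simulation did not cover.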

Additional observations from a re-analysis of the deposited data

Results flagged for a closer look

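Within the groups of 5 libraries, 82 sets of values were screened for a library far from the others, and chance marks about 1 in 20 such sets. A library stood apart in 5 of them, where its gap to the nearest other library was above 0.71 of the whole range of its group. ISG20 in knockdown replicate 3 was the highest of its group at 0.502 CPM (0.762 of the range), against 0.281 to 0.333 CPM in the other knockdown libraries, and it remained far below every control library. MX1 in control replicate 3 was the highest control at 8.38 CPM (0.714 of the range). OAS1 in the same library was the highest control at 3.13 CPM (0.740 of the range). IFNAR2 in control replicate 5 was the highest control at 14.5 CPM (0.718 of the range) and lay within the knockdown range. IFITM2 in control replicate 5 was the lowest control at 27.8 CPM (0.801 of the range).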

How the results depend on the processing

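The 44 genes gave 14 higher and 21 lower in the reported fit. Over the other settings run the counts of calls stayed within 1.5 times of it, for these genes, for the 111 related genes and for all genes. They were 15 and 20 with upper-quartile factors, which shifted all genes by 0.20 on the log2 scale, 14 and 20 with limma-voom, 13 and 18 at a mean of at least 1 CPM, 11 and 24 with no filter beyond 1 count, and 13 and 23 without knockdown replicates 1 and 2. Leaving out 1 library at a time gave 11 to 14 higher and 21 to 22 lower. Of the 35 calls 30 held in every setting in which the gene was tested, and those of IRF1, IFIT3, IRF9, IFNAR2 and ADAR did not. IRF1 did not pass with upper-quartile factors (-0.46) or without knockdown replicates 1 and 2 (-0.50), and IFIT3 did not pass with limma-voom (-0.85). IFI35 gained a call with upper-quartile factors (0.53) and without control replicate 3 (0.45), and IFNAR1 without knockdown replicates 1 and 2 (-0.29). The signs that turned belong to genes that had not passed. IFNAR1 was at 0.108 and TYK2 at 0.0755 with upper-quartile factors. With 1 library left out at a time IFNAR1 ran over -0.188 to 0.00188, above 0 without knockdown replicate 4 alone. TLR9 ran over -0.0825 to 0.226, and was below 0 without knockdown replicate 3 or control replicate 1, 2 or 5. The cause was not tested. CGAS (-1.10), IFI44L (-2.24) and OAS2 passed as lower with no filter, and CGAS also did when any knockdown replicate or control replicate 4 was left out. Among the related genes, the relay genes called lower were 4 of 22 with upper-quartile factors and 5 without knockdown replicate 1, and the nucleases called higher were 1 with no filter and 1 or 2 without control replicate 1 or 4. Deviations of same-numbered knockdown and control libraries correlated at -0.17 to 0.22, with the best match to the own number for 2 of 5. These 5 values cannot exclude that the numbers mark a shared culture or day, which the labels do not state. With the replicate number as a block 12 of these genes were higher and 21 lower, and 8214 and 8211 of all genes. The genes no longer called, IFNAR2 and ADAR, had the same log2 fold changes under the block (0.29 and 0.23).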
